A study of Mus musculus with 81 samples.

Results

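Paired Ig-like receptors (PIR), leukocyte Ig-like receptors (LILR) and Siglecs were followed through 5 genes, Pirb, Lilra6, Lilrb4a, Siglece and Cd33, in neutrophils of inbred mouse strains. The members were the probe sets that the platform's gene table pairs with one of these symbols alone, which gave 1 probe set per gene, 5 of 24922 in all. Neutrophils were sorted from bone marrow as CD11b+ Ly6G+ cells of male mice aged 6 weeks, each array holding RNA of a pool of 2 to 3 mice, and 81 Affymetrix arrays fell by title into 40 groups. C57BL/6J was measured on 5 arrays, SWR/J and FVB/NJ on 1 each and the other 37 groups on 2.

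The 5 wild-derived strains, as commonly classed, were WSB/EiJ, PWD/PHJ, MSM/Ms, JF1/Ms and CAST/EiJ. The 35 classical groups were 129S1/SvImJ, A/J, AKR/J, C3H/HeJ, C57BL/6J, C57BL/10J, C57BLKS/J(662), C57L/J (668), CBA/CaJ, CBA/J, CE/J, DDY/JclSidSeyFrkJ, FVB/NJ, KK.Cg-Ay/J, LGJ, LP/J(676), MA/MyJ, MRL/MpJ, NOD/ShiLtJ, NON/ShiLtJ, NOR/LtJ, NZB/BINJ, NZW/LacJ, P/J, PL/J, RIIIS/J, SEA/GnJ, SJL/J, SM/J, SWR/J and 5 groups whose labels conflict. KK.Cg-Ay/J carries the Ay allele of the agouti gene, as its name says. The conflicting groups are called titled BPL (background label BALB/cByJ), titled BTBR (BPL/1J), titled Balb (BTBR T+ tf/J), titled C57BR (CBA/CaJ) and titled DBA2 (DBA/1LacJ), and what strain each holds cannot be told apart.

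Values are log2 intensities. Differences are first minus second with their standard error (SE), p-values are those of limma, adjusted over all probe sets by the Benjamini-Hochberg method, and a strain was called against C57BL/6J at an adjusted p under 0.05 with a difference of at least 1, which is 2-fold. Array medians lay between 6.60 and 6.84. The 12 neutrophil markers measured, among them Ly6g and Itgam, which encodes CD11b, had mean values of 12.66 to 13.66. The array's probes follow the C57BL/6J sequence. Where the sequence of another strain differs under a probe, the intensity there can come out lower, and the part of such variants in the differences given here was not tested. In these bulk samples, fewer cells of a type and less RNA per cell cannot be told apart.

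PIR and LILR proteins are receptors with extracellular immunoglobulin domains, carried by myeloid and B cells. Inhibitory members such as PIR-B carry ITIMs in their cytoplasmic tail, which recruit the phosphatases SHP-1 and SHP-2 and dampen signals for adhesion, cytokine release and killing, while activating members lack ITIMs and pair with the Fc receptor gamma chain. PIR-B binds class I histocompatibility molecules. Siglecs are lectins of the same superfamily that bind sialic acids on the cell's own surface or on other cells, and most carry ITIMs too. Siglec-E is the main inhibitory Siglec of mouse neutrophils.

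All 5 members passed limma's moderated F test for a difference among strains, as did 56% of all probe sets and 84.9% of those with a mean of at least 7. Lilra6 and Lilrb4a also spanned at least 2-fold, as did 24.5% of all probe sets. Lilra6 stood apart within the set in the size of its spread: its strain means ran over 4.67, a 25.5-fold range, and a range this wide or wider was found in few probe sets, since it lay at percentile 99.7 of all. The ranges were 1.44 for Lilrb4a, 0.90 for Siglece, 0.76 for Pirb and 0.57 for Cd33. The spread between arrays of a strain, pooled over strains, was an SD of 0.17 for Lilra6, 0.13 for Lilrb4a, 0.10 for Siglece and 0.09 for both Pirb and Cd33.

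Lilra6, listed in RefSeq among the PIR genes of chromosome 7, gave strain means that fell into separate levels. In C57BL/6J the 5 arrays read 11.63, 11.79, 11.81, 11.93 and 12.00. The LGJ arrays read 7.33 and 7.87, those of MSM/Ms 7.88 and 8.43, and those of MRL/MpJ 7.96 and 8.39. The PWD/PHJ arrays read 8.18 and 8.51, and the JF1/Ms arrays 9.49 and 10.31. These 10 arrays lay between 7.33 and 10.31, and the 71 arrays of the other 35 strains lay between 11.39 and 12.38. The 5 strains were picked by their Lilra6 values, as those called below, so the gap describes the values and tests nothing. JF1/Ms sat between both levels, and its arrays differed by 0.81, the widest gap between replicates of any strain for this gene.

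The median strain mean of Lilra6 was 11.96, and the lowest among the 35 strains was 11.44 in CAST/EiJ, whose arrays read 11.39 and 11.49. Along the order of the 40 strain means there were 39 steps, and 3 of them exceeded the SD between arrays of a strain. They lay between LGJ and MSM/Ms (0.55), between PWD/PHJ and JF1/Ms (1.55) and between JF1/Ms and CAST/EiJ (1.54), and no other neighbours differed beyond that SD. It is pooled over strains, at 0.17, and LGJ and MSM/Ms spread wider, with SDs of 0.38 and 0.39. Their nearest arrays read 7.87 and 7.88, so the step of 0.55 is no clear boundary. Classical and wild-derived strains were found at both levels: LGJ and MRL/MpJ are classical, and WSB/EiJ, with arrays at 11.93 and 11.99, is wild-derived.

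Against C57BL/6J, Lilra6 was called in 5 of 39 strains, all lower, where 1.62% of all probe set and strain combinations were called. The difference was -4.23 in LGJ (18.7-fold), -3.67 in MSM/Ms (12.8-fold) and -3.65 in MRL/MpJ (12.6-fold), each with an SE of 0.14 and adjusted p-values of 1.7e-29, 4.5e-27 and 1.4e-26. PWD/PHJ was lower by -3.48 ± 0.14 (SE; adjusted p = 3.4e-26) and JF1/Ms by -1.93 ± 0.14 (SE; adjusted p = 4.5e-16). These SEs rest on the pooled SD of 0.17, and the arrays of the 5 strains spread wider, with SDs from 0.23 in PWD/PHJ to 0.58 in JF1/Ms. The share of all probe sets called against C57BL/6J was 1.16% in LGJ, 1.99% in MRL/MpJ, 2.99% in MSM/Ms, 2.81% in PWD/PHJ and 2.83% in JF1/Ms. The 34 strains not called differed from C57BL/6J by -0.39 to 0.44.

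Among the low strains, a pair of contrasts between related strains, chosen after the values were seen, gave differences as well. MRL/MpJ lay above LGJ by 0.57 ± 0.17 (SE; limma adjusted p = 0.040), in a comparison that called 3.84% of probe sets. JF1/Ms lay above MSM/Ms by 1.74 ± 0.17 (SE; limma adjusted p = 3.3e-11), in one that called 3.12%. Both SEs rest on the Lilra6 SD pooled over all strains, 0.17. The arrays of these strains spread wider, with SDs of 0.38 in LGJ, 0.31 in MRL/MpJ, 0.39 in MSM/Ms and 0.58 in JF1/Ms. The SEs and p-values of both contrasts thus understate the spread of these strains. The other 4 members did not pass in either contrast.

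**Figure D1:**
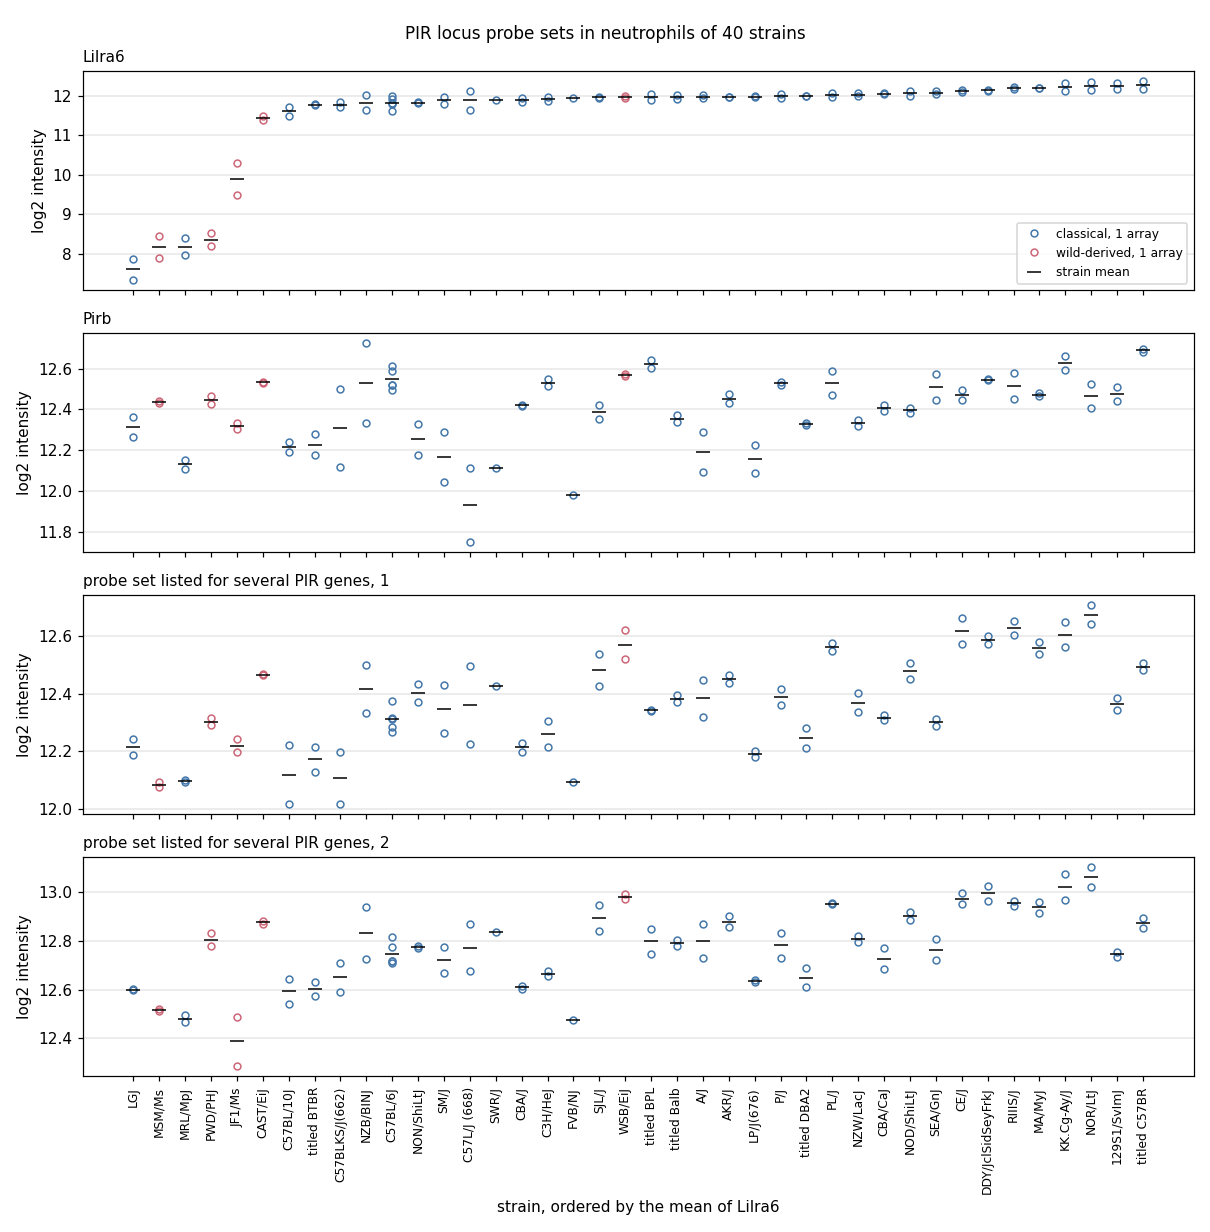
Log2 intensity of Lilra6, Pirb and both probe sets listed for several PIR genes in each array (circles; wild-derived strains in red) with the strain mean (bar), strains ordered by Lilra6; the vertical axes differ. Lilra6 drops to 7.60 in LGJ, while Pirb keeps within 11.93 to 12.69 and the shared probe sets within 12.08 to 12.67 and 12.39 to 13.06.

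Pirb, the inhibitory receptor PIR-B, missed the threshold against C57BL/6J in 4 of the 5 strains low for Lilra6. Its strain means ran from 11.93 in C57L/J (668) to 12.69 in titled C57BR around a median of 12.43 (adjusted p = 1.3e-07 in limma's F test). The C57BL/6J arrays read 12.49, 12.52, 12.52, 12.59 and 12.62. The LGJ mean was 12.31, that of MSM/Ms 12.43 and that of PWD/PHJ 12.45. MRL/MpJ, with arrays at 12.11 and 12.15, was the exception, lying below all arrays of C57BL/6J by -0.42 ± 0.09 (SE; adjusted p = 3.0e-04). The differences in LGJ (-0.24), JF1/Ms (-0.23), MSM/Ms (-0.11) and PWD/PHJ (-0.10) missed the threshold, with adjusted p-values of 0.12, 0.058, 0.43 and 0.51.

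No strain was called for Pirb at 2-fold. At the adjusted p alone, Pirb was lower than in C57BL/6J in 10 of 39 strains and higher in 0, where the share over all probe sets and strains was 4.7% lower and 5.34% higher. All 39 differences share the C57BL/6J arrays. The lowest were C57L/J (668) at -0.62 ± 0.09 (SE; adjusted p = 4.6e-07) and FVB/NJ at -0.57 ± 0.11 (SE; adjusted p = 4.4e-04). The C57L/J (668) arrays read 11.75 and 12.11, further apart than the pooled SD of 0.09, and FVB/NJ rests on 1 array at 11.98. SWR/J (-0.43, 1 array), LP/J(676) (-0.39), SM/J (-0.38), A/J (-0.36), C57BL/10J (-0.33), titled BTBR (-0.32) and NON/ShiLtJ (-0.30) made up the rest with MRL/MpJ.

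In RefSeq's gene order on GRCm38.p6, Pirb and Lilra6 stand in one cluster with Pira1, Gm15930, Gm15925, Gm15448, Pira2, Gm10693 and Gm14548 between them, none of which had a probe set listed for it alone. Rps9, a ribosomal protein gene, adjoins Pirb, and Lair1, an inhibitory collagen receptor, is the next gene with a probe set beyond Lilra6. A further pair of probe sets is listed for 6 genes of the cluster at once, Pirb and Lilra6 included, so that they belong to no single gene. The first of them had strain means from 12.08 in MSM/Ms to 12.67 in NOR/LtJ and the second from 12.39 in JF1/Ms to 13.06 in NOR/LtJ. Neither was called against C57BL/6J in any strain at 2-fold. Over all probe sets and strains, 4.7% were lower and 5.34% higher at the adjusted p. At the adjusted p alone the first was lower in 2 strains and higher in 8, and the second lower in 3 and higher in 6. MRL/MpJ and MSM/Ms were lower in both, and JF1/Ms in the second (-0.36, adjusted p = 2.7e-05). These 3 are strains low for Lilra6, and with LGJ they ranked between 1 and 10 from the lowest of 40 for each of both probe sets, where PWD/PHJ ranked 14 and 24. Over the 35 strains of the upper Lilra6 level, r with Lilra6 was 0.53 (rho = 0.54) for the first and 0.48 (rho = 0.52) for the second. PIR genes are near-identical copies, and how far a probe set of one reads transcripts of another was not tested.

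The genes at the edges of the cluster took other courses in the strains low for Lilra6. Lair1 was higher than in C57BL/6J in LGJ (0.53, adjusted p = 0.018) and MRL/MpJ (0.63, adjusted p = 0.0018). It was lower in MSM/Ms (-0.62, adjusted p = 0.0012) and JF1/Ms (-0.86, adjusted p = 8.2e-06), and differed by -0.10 in PWD/PHJ (adjusted p = 0.74). Rps9 was lower in MSM/Ms (-1.26), PWD/PHJ (-1.17) and JF1/Ms (-1.56), with adjusted p-values up to 3.0e-05, and differed by -0.16 in LGJ and -0.12 in MRL/MpJ (adjusted p = 0.89 and 0.85). Rps9 was also lower in CAST/EiJ, by -1.07 (adjusted p = 1.3e-04), where Lilra6 differed by -0.39 (adjusted p = 0.054). Where the Rps9 probes lie in the genome was not checked.

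The stretches before the transcript starts of Pirb and Lilra6 show how alike these copies are in the C57BL/6J reference. Of 220 aligned bases upstream of the starts, 212 were identical (96.4%), with 8 substitutions and 0 gaps. Both are given 5′ to 3′ from RefSeq on GRCm38.p6, minus strand, at chr7:3720383-3720602 for Pirb, bases 220 to 1 before its start, and at chr7:3915532-3915751 for Lilra6, bases 250 to 31 before its start. Capitals mark the bases that differ.
Pirb: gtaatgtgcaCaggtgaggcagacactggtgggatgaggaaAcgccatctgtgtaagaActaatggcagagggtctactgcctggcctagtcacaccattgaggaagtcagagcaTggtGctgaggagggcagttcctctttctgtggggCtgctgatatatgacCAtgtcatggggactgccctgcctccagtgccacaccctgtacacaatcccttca
Lilra6: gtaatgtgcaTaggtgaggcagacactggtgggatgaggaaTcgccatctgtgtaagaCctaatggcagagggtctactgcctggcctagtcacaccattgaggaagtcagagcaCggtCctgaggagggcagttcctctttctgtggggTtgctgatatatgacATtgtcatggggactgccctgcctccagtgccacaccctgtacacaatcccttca
Both hold 1 match to GAGGAAGT, a sequence bound by PU.1, a transcription factor of myeloid cells, searched on both strands. The windows of 250 bases before the starts of Siglece and Cd33 held 0, and 2.44% of all 32851 such windows held a match (802). Sequence of the other strains was not analysed here.

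Lilrb4a, which encodes the inhibitory receptor gp49B, was lowest in CAST/EiJ and NZW/LacJ. The CAST/EiJ arrays read 11.12 and 11.34, those of NZW/LacJ 11.37 and 11.70, and those of C57BL/6J 12.34, 12.49, 12.50, 12.52 and 12.63. No array of either strain reached the C57BL/6J range. The strain means ran up to 12.67 in titled C57BR around a median of 12.37 (adjusted p = 7.0e-12 in limma's F test), and 2 of the 39 steps in their order exceeded the SD between arrays of a strain. The largest, 0.35, lay between NZW/LacJ and titled BTBR.

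CAST/EiJ, at -1.26 ± 0.11 (SE; adjusted p = 1.6e-13), was the 1 strain of 39 called for Lilrb4a at 2-fold, in a contrast that called 2.76% of probe sets. NZW/LacJ followed at -0.96 ± 0.11 (SE; adjusted p = 1.6e-09), just under 2-fold, and past it after quantile normalization (-1.11), without NZW/LacJ replicate 1 (-1.13) or without C57BL/6J replicate 2. At the adjusted p alone 8 strains were lower and 0 higher, beside 4.7% lower and 5.34% higher over all probe sets and strains. The others were titled BTBR (-0.61), MSM/Ms (-0.52), KK.Cg-Ay/J (-0.47), LGJ (-0.37), NON/ShiLtJ (-0.31) and JF1/Ms (-0.31).

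Lilr4b, the adjoining gene in RefSeq's order and a close copy named gp49A, gave a different lowest strain. Its JF1/Ms arrays read 11.04 and 11.09, against 12.63, 12.69, 12.82, 12.82 and 12.83 in C57BL/6J, a difference of -1.69 ± 0.11 (SE; adjusted p = 1.1e-17). In NZW/LacJ the arrays read 11.70 and 11.92, a difference of -0.95 (adjusted p = 4.7e-09). NZW/LacJ was thus low for both genes. KK.Cg-Ay/J (-0.74), MSM/Ms (-0.64) and titled BTBR (-0.60) were also lower for both at the adjusted p, as were NON/ShiLtJ (-0.33) and JF1/Ms; the values are those of Lilr4b. CAST/EiJ, lowest for Lilrb4a, read 12.44 and 12.74 for Lilr4b, and its difference of -0.17 did not pass. Over the 40 strain means the Pearson r of both genes was 0.53 and Spearman's rho 0.72, with r at 0.65 without the 2 strains farthest from the median of Lilrb4a. Both genes were read on the same arrays, and a close copy can share probes.

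**Figure D2:**
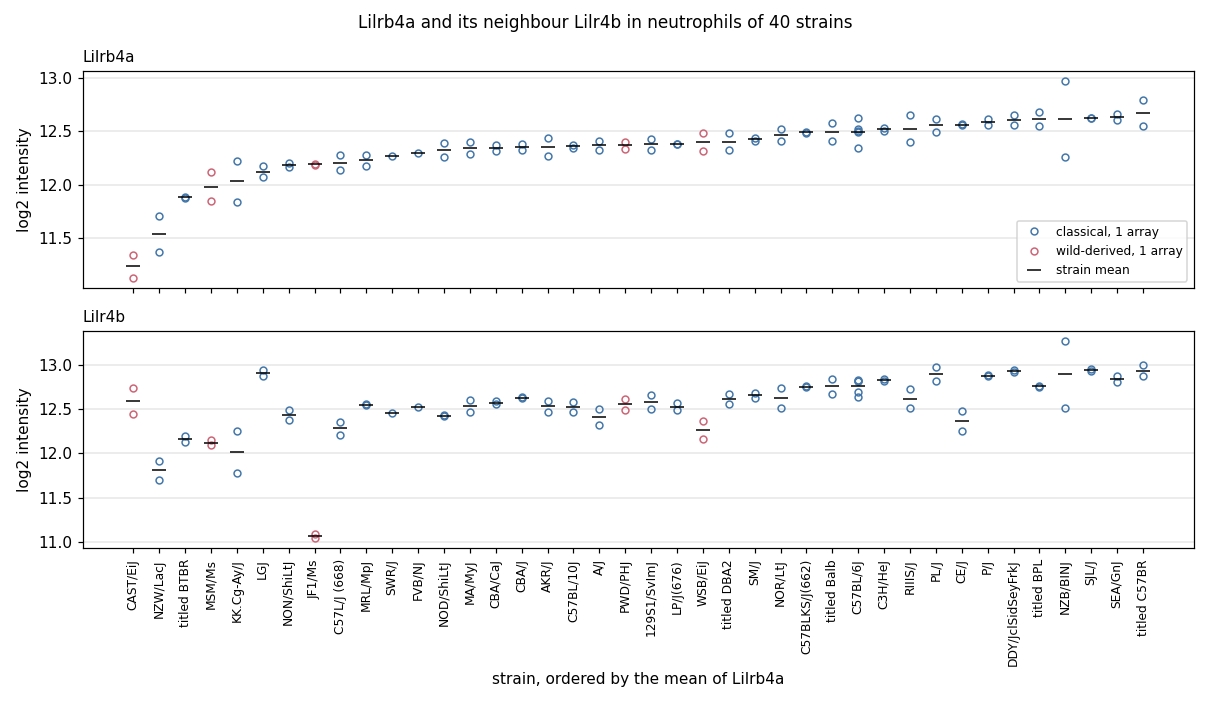
Log2 intensity of Lilrb4a and of its neighbour Lilr4b in each array (circles; wild-derived strains in red) with the strain mean (bar), strains ordered by Lilrb4a. CAST/EiJ and NZW/LacJ, at 11.23 and 11.53, are lowest for Lilrb4a, and JF1/Ms, at 11.07, is lowest for Lilr4b.

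Siglece, the gene of Siglec-E, was lowest in NZW/LacJ, with arrays at 11.32 and 11.34, and in titled DBA2, with arrays at 11.34 and 11.35. The C57BL/6J arrays read 11.65, 11.87, 11.88, 11.89 and 12.00, all above both strains. At the other end, the SM/J arrays read 12.23 and 12.24 and the WSB/EiJ arrays 12.17 and 12.24, all above those of C57BL/6J. The median strain mean was 12.00 (adjusted p = 7.5e-11 in limma's F test). The step of 0.26 between titled DBA2 and P/J was the only 1 of 39 wider than the SD between arrays of a strain.

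From the lowest strain mean, C57BL/6J itself ranked 13 for Siglece, 11 for Lilra6, 29 for Lilrb4a, 34 for Cd33 and 36 for Pirb. That place bounds how many strains can lie above or below it. Siglece moved both ways from C57BL/6J, which no other member did. At the adjusted p it was lower in 2 strains, NZW/LacJ (-0.53 ± 0.09, SE; adjusted p = 1.1e-05) and titled DBA2 (-0.51 ± 0.09, SE; adjusted p = 2.4e-05). It was higher in 6 strains: SM/J (0.38), WSB/EiJ (0.35), NZB/BINJ (0.34), SJL/J (0.33), 129S1/SvImJ (0.32) and LP/J(676) (0.27). None of these reached 2-fold, and over all probe sets and strains 4.7% were lower and 5.34% higher at the adjusted p. The SJL/J arrays, at 12.02 and 12.37, lay further apart than the difference from C57BL/6J.

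Cd33, the gene of the myeloid antigen CD33 or Siglec-3, varied least. Its strain means ran from 12.69 in C57L/J (668) to 13.25 in titled BPL around a median of 13.12 (adjusted p = 6.5e-05 in limma's F test), and 1 of 39 steps, the one above C57L/J (668), exceeded the SD between arrays of a strain. The C57BL/6J arrays read 13.16, 13.18, 13.18, 13.22 and 13.25. The C57L/J (668) arrays read 12.45 and 12.92, so that its lowest place rests largely on 1 array. Without that array the range of strain means was 0.43.

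No strain was called for Cd33 at 2-fold. At the adjusted p, Cd33 was lower than in C57BL/6J in 7 strains and higher in 0. Over all probe sets and strains the shares were 4.7% lower and 5.34% higher. C57L/J (668) differed by -0.51 ± 0.08 (SE; adjusted p = 1.1e-05) and titled DBA2 by -0.37 ± 0.08 (SE; adjusted p = 9.6e-04). NZW/LacJ (-0.33), NZB/BINJ (-0.31), CAST/EiJ (-0.28), LP/J(676) (-0.24) and titled BTBR (-0.24) followed. NZW/LacJ and titled DBA2 were thus lower for both Siglecs, and NZB/BINJ and LP/J(676) were higher for Siglece and lower for Cd33. The NZB/BINJ arrays for Cd33 lay far apart, at 12.74 and 13.03 (SD 0.21).

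Of the other Siglecs, Siglecg, an inhibitory receptor best known in B-1 cells, varied most. Its strain means ran from 7.30 in WSB/EiJ to 10.92 in MSM/Ms. The WSB/EiJ arrays read 7.30 and 7.31, those of C57BL/6J 8.43, 8.55, 8.67, 8.77 and 8.81, and those of MSM/Ms 10.82 and 11.01. Siglecg was called against C57BL/6J as higher in 11 strains, led by MSM/Ms (2.27), JF1/Ms (2.10), PWD/PHJ (1.77) and CAST/EiJ (1.74), and as lower in WSB/EiJ (-1.34). The strain with the lowest Siglece, NZW/LacJ, was among those higher for Siglecg (1.498), as was titled DBA2 (1.37). WSB/EiJ, among the highest for Siglece, was the lowest for Siglecg. Across all 40 strains the relation was weak (Pearson r = -0.37, Spearman's rho = -0.16, r = -0.26 without the 2 farthest strains).

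**Figure D3:**
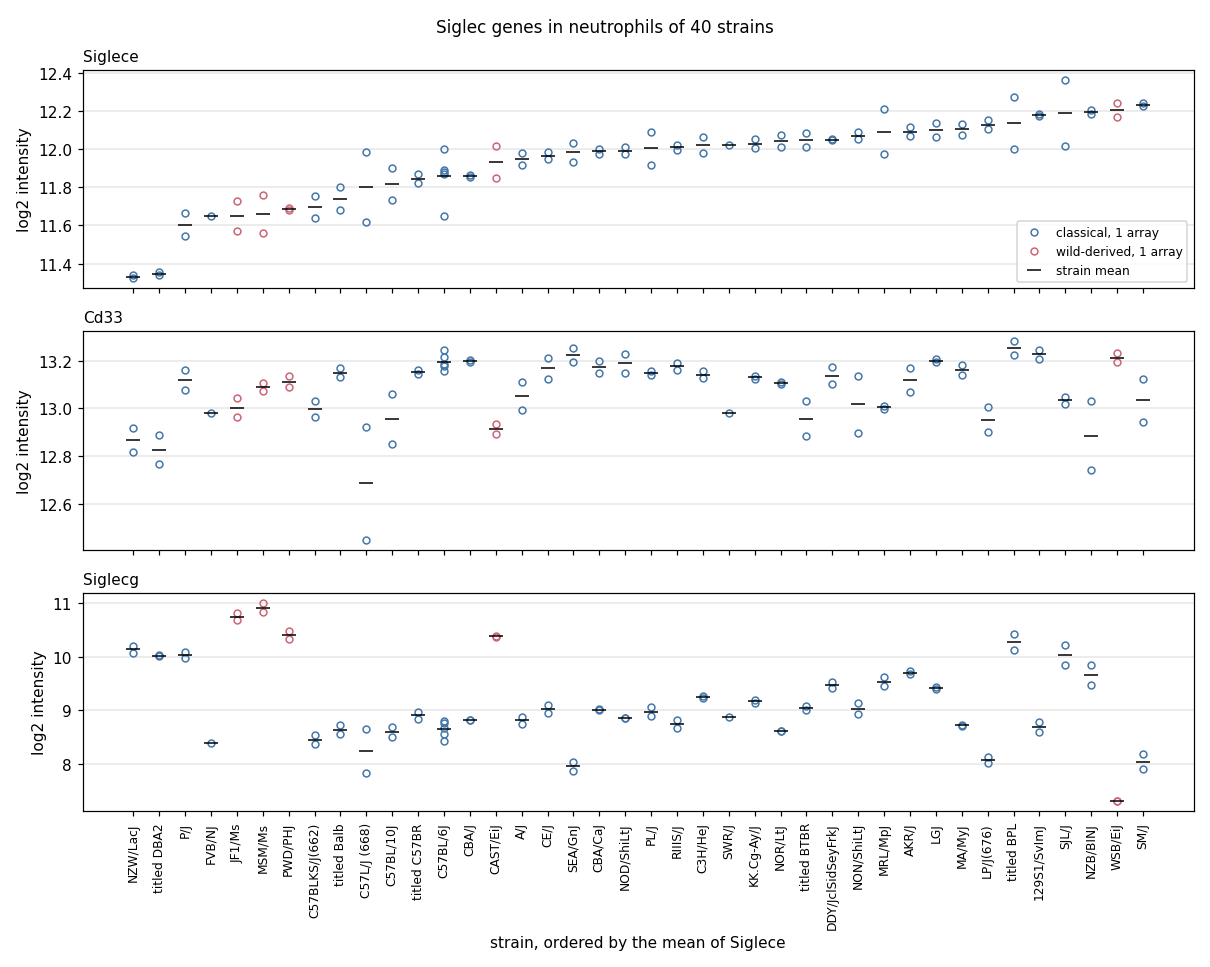
Log2 intensity of Siglece, Cd33 and Siglecg in each array (circles; wild-derived strains in red) with the strain mean (bar), strains ordered by Siglece; the vertical axes differ. NZW/LacJ and titled DBA2, at 11.33 and 11.35, are lowest for Siglece, Cd33 stays within 12.69 to 13.25, and Siglecg spans 7.30 to 10.92.

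Related strains were compared pair by pair in the same fit. C57BL/10J lay below C57BL/6J for Pirb by -0.33 ± 0.09 (SE; limma adjusted p = 0.019), in a comparison that called 2.65% of probe sets, and the other 4 members did not pass. Cd33, at -0.24 (limma adjusted p = 0.095), passed after quantile normalization (-0.33, adjusted p = 0.011), without C57BL/10J replicate 1 (-0.34) and without either C57L/J (668) array (adjusted p = 0.045), whose spread enters the pooled estimate. The C57BL/10J arrays for Pirb read 12.19 and 12.24, below all 5 of C57BL/6J. Without either C57BL/10J array the difference stayed between -0.36 and -0.31 and was no longer called (adjusted p up to 0.39). CBA/J against CBA/CaJ (1.71% of probe sets called) and NOD/ShiLtJ against NOR/LtJ (5.56%) differed in none of the 5 members at the adjusted p. The largest of those differences was -0.18 ± 0.17 (SE; limma adjusted p = 0.58), for Lilra6 in NOD/ShiLtJ against NOR/LtJ.

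NZB/BINJ lay above NZW/LacJ for Lilrb4a by 1.08 ± 0.13 (SE; limma adjusted p = 1.2e-08) and for Siglece by 0.87 ± 0.11 (SE; limma adjusted p = 1.4e-08). Of all probe sets, 45.5% were called in this pair. The Lilrb4a arrays of NZB/BINJ read 12.26 and 12.97, and its Siglece arrays 12.18 and 12.21. The NZB/BINJ arrays differed from each other by 0.71 for Lilrb4a, and without the higher of them the difference was 0.73. Pirb, Lilra6 and Cd33 differed by 0.20, -0.21 and 0.02 and did not pass, but Pirb did after quantile normalization (0.34, adjusted p = 0.0049) or without NZB/BINJ replicate 1 (0.39, adjusted p = 0.014).

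Wild-derived strains were compared with classical strains on strain means, the strain being the replicate. Some strains are related, among them MSM/Ms with JF1/Ms and MRL/MpJ with LGJ. This was not modelled, and such strains are not fully independent replicates. Lilra6 was lower in wild-derived strains, at 9.96 ± 1.74 (SD, n = 5) against 11.76 ± 0.98 (SD, n = 35), a difference of -1.80 ± 0.50 (SE; limma adjusted p = 0.013). Of all probe sets 12.2% were called by origin, 6.64% higher and 5.55% lower in wild-derived strains. The wild-derived means were spread from 8.16 to 11.96, and the classical range of 7.60 to 12.27 covered all of them. The difference was no longer called without MSM/Ms (-1.35, adjusted p = 0.13) or without PWD/PHJ (-1.39).

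The other members were not called by origin. Lilrb4a differed by -0.34 ± 0.13 (SE; limma adjusted p = 0.063), and without CAST/EiJ by -0.14. It passed without WSB/EiJ (-0.44) or PWD/PHJ (-0.43), without 1 array each of MSM/Ms, NZW/LacJ or WSB/EiJ (-0.37 to -0.35; adjusted p = 0.040 to 0.048), and, at the same size, when dim probe sets were left out of the adjustment (adjusted p = 0.044). Siglece differed by -0.12 ± 0.10, Pirb by 0.09 ± 0.08 and Cd33 by -0.01 ± 0.06 (SE; limma adjusted p = 0.48, 0.55 and 0.95).

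**Figure D4:**
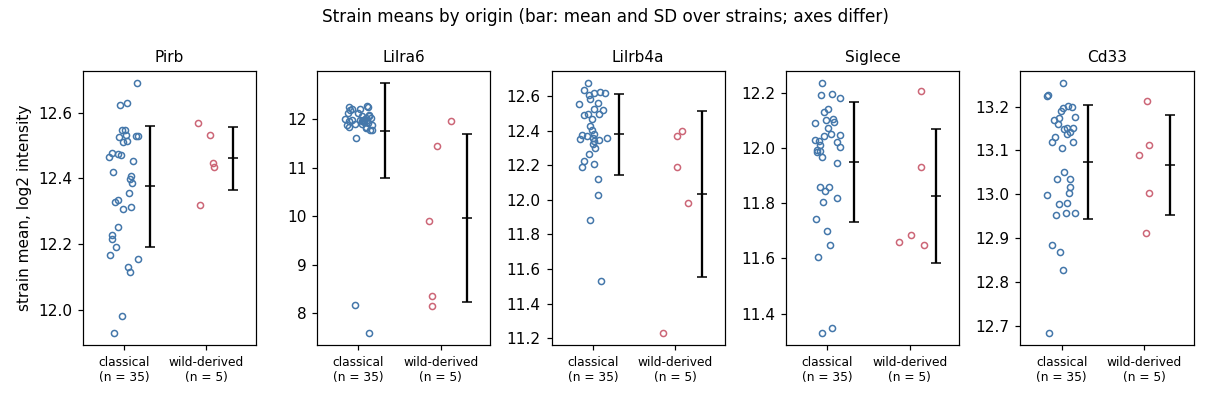
Strain means of the 5 members in log2 intensity for 35 classical and 5 wild-derived strains (circles), with the mean and SD over strains (bars); the vertical axes differ. The wild-derived means of Lilra6 spread from 8.16 to 11.96, and the classical strains LGJ and MRL/MpJ lie at 7.60 and 8.18.

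Pairs of members differed in how far their strain patterns ran together. Over the 40 strain means, Pirb and Cd33 had the highest correlation of any pair of members (Pearson r = 0.64, Spearman's rho = 0.57, r = 0.54 without the 2 strains farthest from the median of Pirb). Pirb and Lilrb4a had r = 0.23 but rho = 0.47, Lilrb4a and Cd33 r = 0.42 (rho = 0.36), Lilrb4a and Siglece r = 0.25 (rho = 0.17), Siglece and Cd33 r = 0.37 (rho = 0.28), and Pirb and Siglece r = 0.16 (rho = 0.15). Because Lilra6 falls into separate levels, its correlations were taken over the 35 strains of the upper level. There they were r = 0.35 with Pirb (rho = 0.37), 0.43 with Lilrb4a (rho = 0.25), 0.10 with Siglece (rho = 0.06) and 0.49 with Cd33 (rho = 0.46). The points of each correlation share their arrays, and each is given as a description.

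The genes whose strain pattern was most like that of a member were sought among 4150 genes, or 4149 where the member itself belonged to them, that passed the F test, spanned at least 2-fold among strains and had a highest strain mean of at least 7. For Cd33 they were Mapk1ip1 (r = 0.85, rho = 0.80), Tet2 (0.80 and 0.76), Fam193b (0.78 and 0.74) and Zfc3h1 (0.78 and 0.78). For Pirb they were Ogt (r = 0.79, rho = 0.69), Kansl1 (0.77 and 0.75), 6330407A03Rik (0.76 and 0.68) and Polg2 (0.76 and 0.68). For Siglece they were AI987944 (r = 0.68, rho = 0.39), Chst12 (0.61 and 0.48), Mov10 (0.57 and 0.37) and Rnu3a (0.56 and 0.47).

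For Lilrb4a the most similar genes were 4833420G17Rik and Chil5 (both r = 0.61), Sntb1 and Exoc1 (both r = 0.60). Without the 2 strains farthest from its median, CAST/EiJ and NZW/LacJ, the first 3 fell to between 0.26 and 0.31, so that their likeness rests largely on those strains, and Exoc1 stood at 0.54. For Lilra6 the genes ranked first were Macir, Rnf7, Zbtb38 and Eif1b. Within the 35 strains of the upper level their r with Lilra6 was -0.04, 0.17, 0.17 and 0.25, so that their rank rests on the 5 low strains.

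The wider PIR and LILR list held 17 genes, of which 6 had a probe set of their own, and 3 of those differed among strains, each by at least 2-fold. Over all 19752 genes, dim ones included, 10929 passed the F test and 4538 of them spanned at least 2-fold. These numbers are the background for the counts on each list. Tarm1, an activating receptor of neutrophils, ran from 10.59 in titled Balb to 12.03 in JF1/Ms, was called lower than in C57BL/6J in 4 strains, and was higher in wild-derived strains by 0.60 (adjusted p = 0.0044). Lilr4b and Lair1 were lower in wild-derived strains, by -0.48 (adjusted p = 0.028) and -0.70 (adjusted p = 0.013). Lilra5, Oscar and Ncr1 did not pass the F test, with means of 5.87, 6.21 and 5.10, all below 7.

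Of 8 entries on the Siglec list beyond the members, 7 were measured and all 7 differed among strains, 4 of them by at least 2-fold. Besides Siglecg these were Siglecf, the eosinophil Siglec, from 7.76 in NZB/BINJ to 9.32 in CAST/EiJ, Mag, from 6.48 in RIIIS/J to 8.17 in CE/J, and Cd22, a B cell Siglec, from 5.83 in NOR/LtJ to 7.27 in RIIIS/J. Siglecf was higher in wild-derived strains by 0.54 (adjusted p = 8.7e-04). Siglec1, the macrophage sialoadhesin, and Siglech, of plasmacytoid dendritic cells, ranged over 0.65 and 0.48. The median SD of strain means was 0.30 on this list and 0.25 on the PIR and LILR list, and 0.14 over all 19752 genes.

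Genes that work with these receptors were described from fixed lists. Their counts are to be read beside the 10929 of 19752 genes that passed the F test, dim genes included. Where the mean was 7 or more, 84.9% of probe sets passed. The means of these lists lay at 7.68 or above in every strain, so that the counts alone do not set them apart from other bright genes. Of 12 activating receptors and adaptors measured, 10 passed. Cd300ld, an activating receptor, spread most, from 8.46 in titled Balb to 12.40 in PWD/PHJ, followed by Pilrb2 (SD over strains 0.33), Pilrb1 (0.33) and Fcgr4 (0.29). Fcer1g, the Fc receptor gamma chain with which activating PIR proteins pair, did not pass (adjusted p = 0.086; range 0.52).

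Of 16 other ITIM receptors 13 passed. Lair1, Pecam1, Cd200r1 and Clec4a2 spread most, with SDs of 0.47, 0.44, 0.42 and 0.38. By origin 4 of the 16 were lower in wild-derived strains and 0 were higher. Over all 19752 genes, 958 were lower and 1336 higher. The 4 were Lair1 and, by -0.79, -0.40 and -0.24, Clec4a2, Clec12a and Pilra (adjusted p up to 0.0031 for these and 0.013 for Lair1).

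Among 21 genes of ITIM signalling, 17 passed, but only 2 spanned at least 2-fold. Ptpn11, the gene of SHP-2, ran from 8.46 in MSM/Ms to 9.70 in NZW/LacJ, and Sh2d1b1, an adaptor, from 3.77 in RIIIS/J to 7.11 in PWD/PHJ. Socs3 (SD 0.24) and Vav3 (0.21) followed. Ptpn6, the gene of SHP-1, did not pass (adjusted p = 0.13). The Src-family kinase gene Fgr and the ubiquitin ligase gene Cbl were higher in wild-derived strains by 0.20 and 0.23 (adjusted p = 0.0090 and 0.0060).

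The ligand list of the PIR and LILR receptors had 7 measured genes, of which 6 passed. Mag, which is also a Siglec, led with an SD of 0.31, before Apoe (0.31), Rtn4, the gene of the PIR-B ligand Nogo (0.25), and Omg (0.21). B2m, the light chain of class I molecules, ranged over 0.57 around a mean of 13.38. Omg was higher in wild-derived strains by 0.28 (adjusted p = 0.036).

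Genes that make, transfer or remove sialic acid, the ligand of Siglecs, gave 18 of 23 that passed and 14 that also spanned at least 2-fold, where over all 19752 genes 4538 did both. St8sia1, a sialyltransferase of gangliosides, had an SD of 1.90. Cmah, the enzyme that makes N-glycolylneuraminic acid, ran from 9.35 in SWR/J to 11.95 in SEA/GnJ, Npl, a sialic acid lyase, from 5.60 in CBA/CaJ to 9.07 in SJL/J, and Slc35a1, the CMP-sialic acid transporter, from 7.94 in NZW/LacJ down to 5.89 in KK.Cg-Ay/J. By origin, wild-derived strains had higher values of 3 genes and lower values of 3, beside 1336 higher and 958 lower over all 19752 genes. The higher ones were Slc35a1 (0.71), St3gal3 (0.63) and St3gal1 (0.45), and the lower ones St3gal2 (-0.44), Nans (-0.39) and Gne (-0.39).

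Markers of other cells that the sort could hold were set beside the members. The mean of the 12 neutrophil markers ran over a narrow range, from 13.27 in titled BTBR to 13.41 in SEA/GnJ. It moved with Lilrb4a (r = 0.44, rho = 0.53 over the 40 strain means) and, over the 35 strains of its upper level, with Lilra6 (r = 0.38, rho = 0.43). With Pirb, Siglece and Cd33 r was 0.27, 0.24 and 0.33 over the 40 strain means. The mean of 11 markers of dividing cells was lowest, 7.01, in NOR/LtJ and highest, 9.72, in NON/ShiLtJ, and that of 7 early granulocyte markers from 7.01 in JF1/Ms to 7.89 in NON/ShiLtJ. The dividing and early granulocyte means moved against Pirb, with r = -0.44 (rho = -0.51) and r = -0.48 (rho = -0.55) over the 40 strain means. In the same order, r was 0.11 and 0.23 with Siglece, -0.19 and -0.28 with Cd33, and -0.04 and -0.11 with Lilrb4a. With Lilra6, over the 35 strains of its upper level, r was -0.28 and -0.32. The part of any of these markers in the strain differences of the members was not tested.

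The mean of 13 monocyte and macrophage markers lay between 6.83 and 7.59. Over the 40 strain means its r ran from -0.16 with Cd33 to 0.29 with Lilra6 (rho = 0.09). Over the 35 strains of the upper Lilra6 level, r with Lilra6 was -0.16 (rho = -0.17). Means lay between 5.97 and 6.51 for 6 eosinophil markers, 5.37 and 5.75 for 7 basophil and mast cell markers, 5.90 and 6.40 for 7 B cell markers, and 5.69 and 6.66 for 7 T and NK cell markers. They lay between 6.34 and 6.96 for 8 dendritic cell markers, 6.01 and 6.51 for 3 erythroid markers and 6.31 and 7.86 for 4 megakaryocyte markers. Most of these list means lie near or below the array medians of 6.60 to 6.84. From the eosinophil list on, and Lilra6 aside, r over the 40 strain means ran from -0.36 (Cd33, erythroid) to 0.30 (Siglece, B cell). For Lilra6, over the 35 strains of its upper level, r ran from -0.17 (eosinophil) to 0.18 (megakaryocyte). The part of these markers in the members' differences was not tested.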

How the data were processed

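The authors deposited intensity values on a linear scale for 24922 probe sets; Affymetrix Power Tools and RMA are named, without versions, per the submitters' processing notes. RNA was extracted with TriZol and labelled with an Affymetrix WT Terminal Labeling kit, per the labels' protocols. The probes' genome build is not given in the sources used here. Values were converted to log2 without further scaling. Of the probe sets, 21425 had 1 symbol in the platform's dated gene table, 1399 several and 2098 none; only the first were named, a gene with several by its brightest. Arrays were grouped by title. Tests used limma 3.58.1 in R 4.3.3 (lmFit, eBayes; 41 residual and 7.93 prior degrees of freedom) with 1 mean per group, so that groups of 1 array borrow the pooled spread; origin was fitted on strain means. The design states that replicates are biological. Precision is limited by the number of arrays per strain. Named list genes were those passing the F test with the largest SD (up to 4) or difference by origin (up to 3), and per member the 4 genes most alike, plus family members. A further few were named after their values were seen: Fcer1g, Ptpn6, B2m, Rps9, Pilra, St3gal2, Nans and Gne. Members and lists were chosen with earlier results of these data known. Upstream windows were aligned with Biopython 1.88. Scripts were tested on simulated data. Alternatives changed the normalization, variance prior, filters, groups, replicate block, probe set per gene, likeness measure and arrays included.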

Additional observations from a re-analysis of the deposited data

How the results depend on the processing

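No called value changed sign, and the F tests of the 5 members and the 5 strains called for Lilra6 held under every alternative fit and leave-out run. The sets of strains called for Pirb, Siglece and Cd33 at 2-fold stayed at 0 throughout. Grouping by background label gave 807 probe sets called for CBA/J against CBA/CaJ (425 by title). Keeping probe sets whose mean was at least 7 gave 6331 for NZB/BINJ against NZW/LacJ (11328 over all), where fewer probe sets are tested. Quantile normalization called 2 strains for Lilrb4a (1 without it). Leaving dim probe sets out, by mean or by highest strain mean, brought Lilrb4a past the threshold by origin (-0.34); here the adjustment runs over fewer tests.

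With 1 array or 1 wild-derived strain left out, the origin difference of Lilra6 ran from -2.30 to -1.35 and that of Lilrb4a from -0.44 to -0.14. The probe sets called ran from 1796 to 3611 by origin (lowest without MSM/Ms; 1971 without JF1/Ms), from 123 to 999 for C57BL/10J against C57BL/6J (without C57BL/10J replicates 3 and 1; 420 without C57BL/6J replicate 3), from 124 to 489 for CBA/J against CBA/CaJ (at most 214 without any of their 4 arrays), from 451 to 1670 for NOD/ShiLtJ against NOR/LtJ (451 and 896 without NOD/ShiLtJ replicates 1 and 2, 708 without NOR/LtJ replicate 2) and from 4157 to 12835 for NZB/BINJ against NZW/LacJ (4157 without NZW/LacJ replicate 1, 4378 without NZB/BINJ replicate 1). The strains called for Lilrb4a ran from 1 to 2. In pairs left with 1 array in a strain, that array is taken to vary like the rest.

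With the replicate number as a block, 13465 probe sets passed the F test (13964 without it), 3043 were called by origin, and the origin difference of Lilra6 was -1.80. The block changed no call of a member. The numbers do not pair the arrays: over 630 pairs of strains the correlation of their deviations ran from -0.50 to 0.51 with a median of 0.01, and 163 exceeded 0.1. Signal over background was not analysed here, and differences in probe sets under 7 are the least certain.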
